A study of Saccharomyces cerevisiae with 12 samples.

Results

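The mitochondrial F1F0 ATP synthase of budding yeast was followed at the RNA level through 10 nuclear genes, 9 that code for subunits of the enzyme and INH1, which codes for the protein that blocks its reverse reaction. The genes were taken by name (ATP1, ATP2, ATP3, ATP4, ATP5, ATP7, ATP14, ATP16, ATP17 and INH1), with earlier results of these data known. All 10 were found among the 6352 genes of each of 7 comparison tables, and all 10 are described in every comparison. The tables come from 12 libraries of Saccharomyces cerevisiae BY4741, a haploid laboratory strain, in 6 groups of 2. The groups were cells lacking SBP1 (Δsbp1), cells lacking SCD6 (Δscd6) and the wild type, each sampled after 30 minutes in 0.5% sodium azide and untreated. All had been grown in rich YEPD glucose medium to an optical density between 0.4 and 0.5. Both missing proteins bind mRNA through RGG repeats and hold back its translation, and the comparisons ask how the azide response of each deletion strain relates to that of the wild type. The labels name no further genotype of these strains.

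ATP synthase sits in the inner mitochondrial membrane and lets protons run back through its membrane part, F0, to turn a central stalk that drives ATP formation in the F1 head. A peripheral stalk, the stator, holds the head still. When the proton gradient collapses the enzyme can run backwards and hydrolyse ATP. Inh1 then binds F1 and stops it, helped by the stabilising factors Stf1 and Stf2. Azide inhibits cytochrome c oxidase and also the hydrolysis of ATP by F1. On glucose, yeast makes most of its ATP by fermentation, and respiratory genes are held down by glucose repression. Many of them carry a CCAAT box, the core bound by the Hap2/3/4/5 complex, while genes of the general stress response carry the element AGGGG, bound by Msn2 and Msn4.

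The 10 genes lie on 6 chromosomes of the R64 reference assembly and none overlaps another gene annotated there. ATP1 (YBL099W, chrII:37053-38690) and ATP2 (YJR121W, chrX:647607-649142) code for the alpha and beta subunits, which form the catalytic head. ATP3 (YBR039W, chrII:315575-316510) codes for gamma and ATP16 (YDL004W, chrIV:443029-443511) for delta, both of the central stalk. The stator subunits are b, from ATP4 (YPL078C, chrXVI:408010-408744), OSCP, from ATP5 (YDR298C, chrIV:1058176-1058814), d, from ATP7 (YKL016C, chrXI:407465-407989), and h, from ATP14 (YLR295C, chrXII:721999-722373). ATP17 (YDR377W, chrIV:1228611-1228916) codes for subunit f of the membrane part. INH1 (YDL181W, chrIV:135179-135436) is a short gene with a coding length of 258 bases, against 1638 for ATP1.

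All 10 members had at least 1 CCAAT, on either strand, in the 200 bases that lie 300 to 101 bases before the start codon. The same letters were found in 30.7% of such windows over 6001 nuclear protein-coding genes of the reference. AGGGG, on either strand, was found in 3 of the 10 windows (ATP2, ATP16 and INH1) and in 16.3% of all windows. The windows of STF1 and STF2, the genes of the stabilising factors, held no CCAAT but 1 and 2 copies of AGGGG. The forward and the reverse copy of CCAAT in the ATP2 window share bases, and CCAAT and AGGGG cannot overlap each other. The windows of the 4 members that changed in any comparison below are printed with those of INH1, STF1 and STF2, since the comparisons turn on these genes. Each reads 5′ to 3′ towards the start codon on the strand of the gene, and capitals mark CCAAT or AGGGG or their reverse complements. They are from RefSeq, build R64.
ATP17 (chrIV:1228311-1228510, plus strand): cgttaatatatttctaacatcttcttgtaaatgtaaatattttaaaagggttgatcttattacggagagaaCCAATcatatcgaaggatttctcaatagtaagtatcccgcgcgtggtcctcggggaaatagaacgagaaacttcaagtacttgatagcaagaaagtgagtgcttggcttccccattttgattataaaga
ATP1 (chrII:36753-36952, plus strand): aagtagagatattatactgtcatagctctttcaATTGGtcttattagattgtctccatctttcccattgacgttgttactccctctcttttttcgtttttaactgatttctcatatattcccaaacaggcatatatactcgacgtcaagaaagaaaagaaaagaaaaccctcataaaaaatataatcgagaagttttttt
ATP7 (chrXI:408090-408289, minus strand): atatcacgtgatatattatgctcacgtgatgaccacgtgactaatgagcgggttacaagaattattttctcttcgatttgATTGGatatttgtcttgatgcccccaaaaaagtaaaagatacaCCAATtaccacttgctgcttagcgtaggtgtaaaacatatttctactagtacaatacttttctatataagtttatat
ATP3 (chrII:315275-315474, plus strand): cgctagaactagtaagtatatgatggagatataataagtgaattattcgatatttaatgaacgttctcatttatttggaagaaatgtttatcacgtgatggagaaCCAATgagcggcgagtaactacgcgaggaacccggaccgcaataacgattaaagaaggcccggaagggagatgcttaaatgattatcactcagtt
INH1 (chrIV:134879-135078, plus strand): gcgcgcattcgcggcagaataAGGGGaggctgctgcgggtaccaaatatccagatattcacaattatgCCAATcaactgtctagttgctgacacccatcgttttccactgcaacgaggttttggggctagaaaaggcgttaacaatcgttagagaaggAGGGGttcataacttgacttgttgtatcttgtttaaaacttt
STF1 (chrIV:228871-229070, plus strand): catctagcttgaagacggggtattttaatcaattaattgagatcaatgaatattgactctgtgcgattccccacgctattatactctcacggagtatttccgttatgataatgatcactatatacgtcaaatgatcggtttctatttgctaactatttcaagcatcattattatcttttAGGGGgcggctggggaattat
STF2 (chrVII:508465-508664, minus strand): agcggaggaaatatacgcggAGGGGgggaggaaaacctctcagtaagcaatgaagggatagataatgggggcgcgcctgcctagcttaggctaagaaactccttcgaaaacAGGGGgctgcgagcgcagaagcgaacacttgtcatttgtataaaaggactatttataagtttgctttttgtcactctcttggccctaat
ATP17, ATP1, ATP7 and ATP3 hold CCAAT without AGGGG, INH1 holds both, and STF1 and STF2 hold AGGGG alone. A match of this length is a description of the letters and does not show that a factor binds there.

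**Figure D1:**
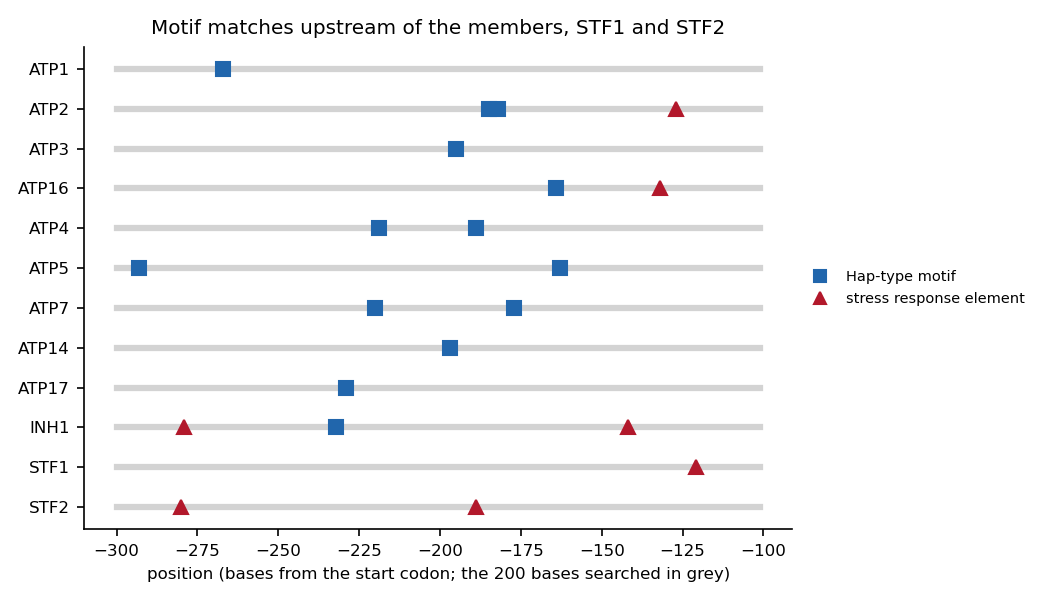
Places of the 2 motifs upstream of the 10 members, STF1 and STF2. The horizontal axis gives bases from the start codon, squares mark the Hap-type motif and triangles the stress response element by their first base, and the grey bars mark the 200 bases searched; all 10 members have a square, STF1 and STF2 have triangles alone.

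Each gene's level in a group was rebuilt from the authors' mean normalised read count over all libraries and their fold changes. It is 1 value per group with no error of its own, since values per library were not used here, and whether libraries of 2 groups overlap cannot be seen. Errors were read from the fold change and the p-value of each comparison. The standard error they imply lay between 0.21 and 0.30 on the log2 scale for the members, with a median of 0.22. A gene is said to rise, fall or be called where the authors' Benjamini-Hochberg adjusted p is under 0.05. Nothing in the labels tells whether the paired libraries of a group were grown as separate cultures, so their spread, on which the p-values rest, may be technical only. RNA totals per cell were not measured, so a lower level cannot be told apart from more RNA of other genes. The deleted genes fit the strain labels, with log2 changes against the wild type of -8.30 for SBP1 in untreated Δsbp1 and -6.28 for SCD6 in untreated Δscd6 in the authors' deposited table. Under azide the same 2 values were smaller in size, at -6.29 and -4.49. The remaining signal of each deleted gene rose under azide in its own deletion strain. That rise was 1.73 for SBP1 (adjusted p = 1.9e-05) and 1.40 for SCD6 (adjusted p = 0.0036) in the authors' deposited table, and its source was not tested.

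Per length of coding sequence the members were abundant. In untreated wild type cells the rebuilt level per kilobase was 7617 for ATP1 and 7476 for ATP2. Then followed OSCP gene ATP5 at 3929, ATP16 at 3548, ATP4 at 3291, ATP17 at 3206, ATP7 at 2306, ATP3 at 2111, ATP14 at 1496 and INH1 at 1403 per kilobase. The 2 genes of the catalytic head stood clear of the rest. In the protein complex alpha and beta are present in several copies beside a single gamma. Over all groups, 94% of 5764 genes had a lower level per kilobase than ATP1 and 75.7% had a lower one than INH1, the lowest of the 10. Differences between neighbours in this order, such as ATP16 to ATP17, could not be set against a spread.

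In azide-treated wild type cells the order changed for the smaller subunits. ATP2 was at 6723 per kilobase and ATP1 at 5484, followed by ATP5 at 3205, ATP4 at 3115, ATP16 at 2898, ATP7 at 2020, ATP14 at 1886, ATP17 at 1717, ATP3 at 1683 and INH1 at 942. ATP17 and ATP3 thus stood below ATP14, which they exceeded in untreated cells. The ratio of beta to alpha RNA per length was 1.26 in azide-treated and 0.859 in untreated Δsbp1 cells. It was 1.15 in azide-treated and 1.09 in untreated Δscd6 cells, and 1.23 in azide-treated and 0.981 in untreated wild type cells. The 9 subunit genes together made up 0.276% of all rebuilt levels in azide-treated and 0.279% in untreated Δsbp1 cells. The shares were 0.249% in azide-treated and 0.202% in untreated Δscd6 cells, and 0.227% in azide-treated and 0.25% in untreated wild type cells.

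Each member's levels stayed within a 2-fold range over the 6 groups. The ratio of the highest to the lowest group level ran from 1.18 for ATP2 to 2 for ATP17 with a median of 1.54 over the 10, against a median of 2.07 over all 6352 genes and of 2 over the 5710 genes with a mean normalised count of at least 100. With group totals set equal, the median of the members was 1.82. The median over all genes at that scaling is not given here, so 1.82 cannot be set against 2.07 or 2. The lowest level of ATP2, ATP3, ATP5, ATP16, ATP17 and INH1 was that of azide-treated wild type cells.

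**Figure D2:**
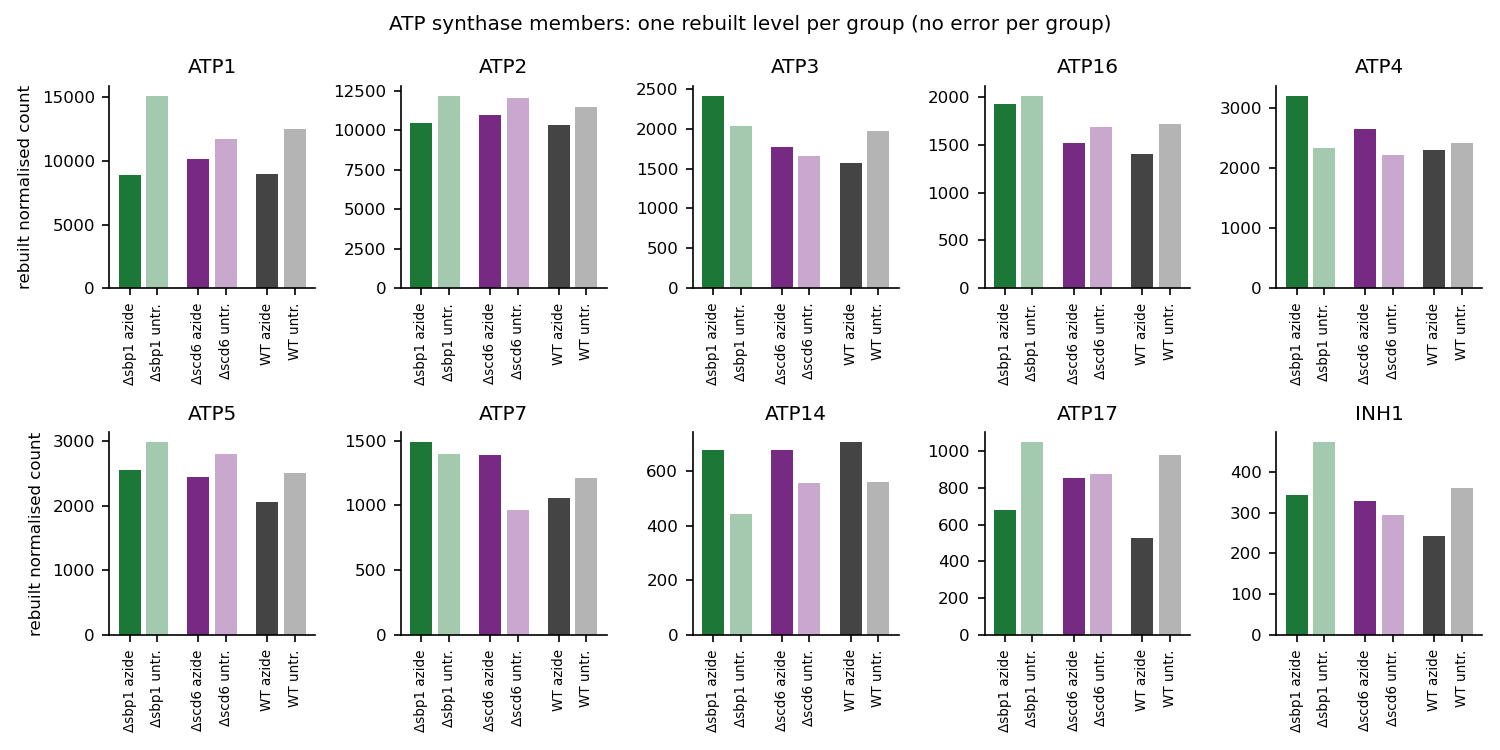
Rebuilt normalised read count (vertical axis, linear and from 0, a scale of its own in each panel) of the 10 members in the 6 groups of 2 libraries, azide beside untreated in each strain. Bars are 1 value per group without error; ATP2 is the flattest, with levels between 10327 and 12196, and ATP17 drops to 525 in azide-treated wild type cells.

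Few of the ATP synthase genes were called under azide in any strain. In the authors' deposited table, by the test, 2 of the 10 members fell in Δsbp1, 1 rose in Δscd6 and 1 fell in the wild type, so 4 of 30 values passed the test. Over all genes 54.9% were called in Δsbp1, 42.5% in Δscd6 and 42.0% in the wild type, in either direction. By direction the authors' deposited table called 27.5% of genes up and 27.4% down in Δsbp1, 22.1% and 20.4% in Δscd6, and 21.3% and 20.6% in the wild type. The median log2 change of the 10 was -0.14 in Δsbp1, 0.03 in Δscd6 and -0.29 in the wild type, beside -0.02, -0.02 and -0.01 over all genes in the same strains. In the wild type 9 of the 10 values were below 0, in Δsbp1 6 and in Δscd6 5. Of all 6352 genes, 3225, 3220 and 3238 were below 0 in the same order of strains. With equal totals, where each group's rebuilt levels are scaled to one sum, all genes shift up by 0.28 in Δsbp1, 0.39 in Δscd6 and 0.15 in the wild type. The called genes then number 2421 up and 1214 down in Δsbp1 (1748 and 1739 as deposited), 2502 up and 527 down in Δscd6 (1404 and 1297), and 1712 up and 974 down in the wild type (1355 and 1311). Of the members, 3 then rose and 0 fell in Δsbp1, 3 rose and 0 fell in Δscd6, and 0 rose and 1 fell in the wild type.

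**Figure D3:**
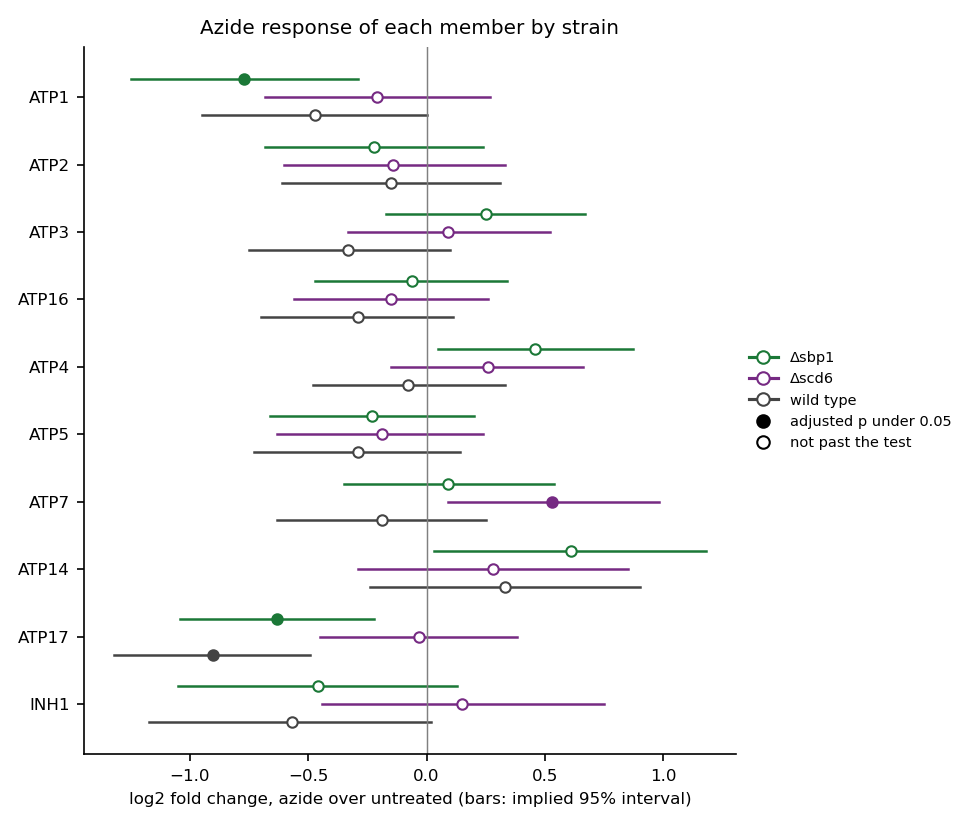
Log2 fold change of azide-treated over untreated cells (horizontal axis) for the 10 members in Δsbp1, Δscd6 and the wild type, from the authors' tables, with the 95% interval implied by each p-value. Filled points passed an adjusted p of 0.05: ATP1 and ATP17 in Δsbp1, ATP7 in Δscd6 and ATP17 in the wild type.

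ATP17, the gene of subunit f, gave the largest of the 30 azide changes by size, a fall in the wild type, and also fell in Δsbp1. Its rebuilt level was 679 in azide-treated and 1049 in untreated Δsbp1 cells, 856 in azide-treated and 875 in untreated Δscd6 cells, and 525 in azide-treated and 981 in untreated wild type cells. The level was thus low under azide in the wild type and Δsbp1 and nearly level in Δscd6. The authors' deposited table gave a fall of -0.90 on the log2 scale in the wild type (interval -1.32 to -0.49, adjusted p = 1.2e-04). It gave a fall of -0.63 in Δsbp1 (-1.04 to -0.22, adjusted p = 0.0066) and a value of -0.03 in Δscd6 that did not pass (-0.45 to 0.38, adjusted p = 0.92), in the authors' deposited table. The Δscd6 response exceeded that of the wild type by 0.87 (0.28 to 1.46), with an adjusted p = 0.069 over 6331 genes in a normal test, which did not pass. With equal totals the fall in the wild type was -0.75 and still passed, the fall in Δsbp1 was -0.35 and did not, and the difference between Δscd6 and the wild type was 1.11 and passed.

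ATP1, the gene of the alpha subunit, fell in Δsbp1 by the test. Rebuilt levels were 8884 in azide-treated and 15139 in untreated Δsbp1 cells, 10191 in azide-treated and 11763 in untreated Δscd6 cells, and 8983 in azide-treated and 12477 in untreated wild type cells. The azide level was the lower one in each strain, and untreated Δsbp1 cells had the highest level of all. In the authors' deposited table the change was -0.77 in Δsbp1 (-1.25 to -0.29, adjusted p = 0.0041), -0.21 in Δscd6 (-0.68 to 0.27, adjusted p = 0.52) and -0.47 in the wild type (-0.95 to 0.00, adjusted p = 0.1). The responses of Δsbp1 and the wild type differed by -0.30 (-0.97 to 0.38, adjusted p = 0.72 by the normal test), so the fall is not shown to be particular to Δsbp1. With equal totals the change in Δsbp1 was -0.49 and did not pass, so the members called there turned from 2 down to 3 up (ATP3, ATP4 and ATP14). ATP2, the gene of the partner subunit beta, gave -0.22 in Δsbp1 (-0.68 to 0.24, adjusted p = 0.43), -0.14 in Δscd6 (-0.60 to 0.33, 0.68) and -0.15 in the wild type (-0.61 to 0.31, 0.63) in the authors' deposited table. The row YBL100C, by its systematic name next to ATP1 on the other strand, gave -0.72 in Δsbp1 (adjusted p = 0.0056), -0.03 in Δscd6 and -0.38 in the wild type in the authors' deposited table. Whether it overlaps ATP1 was not tested, and as use of strand in counting is not stated, reads of the 2 rows cannot be told apart.

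The central stalk genes did not pass in any strain. ATP3, for gamma, gave 0.25 in Δsbp1, 0.09 in Δscd6 and -0.33 in the wild type, with adjusted p = 0.33, 0.76 and 0.22 in the authors' deposited table. For ATP16, the delta gene, the authors' deposited table gave -0.06 in Δsbp1, -0.15 in Δscd6 and -0.29 in the wild type, with adjusted p = 0.81, 0.59 and 0.26. All 6 intervals included 0, and the widest bounds were -0.75 and 0.67, both of ATP3.

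Of the stator genes ATP7, for subunit d, rose in Δscd6. Its rebuilt level was 1392 in azide-treated and 962 in untreated Δscd6 cells, 1488 in azide-treated and 1394 in untreated Δsbp1 cells, and 1060 in azide-treated and 1210 in untreated wild type cells. The untreated Δscd6 level was the lowest of the 6. The authors' deposited table gave 0.53 in Δscd6 (0.09 to 0.98, adjusted p = 0.045), 0.09 in Δsbp1 (-0.35 to 0.54, adjusted p = 0.74) and -0.19 in the wild type (-0.63 to 0.25, adjusted p = 0.52). The Δscd6 response exceeded the wild type's by 0.72 (0.10 to 1.35), with an adjusted p = 0.18 in the normal test that did not pass. With equal totals the difference was 0.96 and passed, and the rise in Δscd6 was 0.92.

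ATP4, ATP5 and ATP14 did not pass at the authors' normalisation. ATP4, for subunit b, had a rebuilt level of 3200 in azide-treated and 2330 in untreated Δsbp1 cells. Its log2 changes in the authors' deposited table were 0.46 in Δsbp1 (adjusted p = 0.051), 0.26 in Δscd6 (0.33) and -0.08 in the wild type (0.79). ATP14, for subunit h, was the one member with a positive value in all 3 strains, at 0.61 in Δsbp1 (adjusted p = 0.068), 0.28 in Δscd6 (0.46) and 0.33 in the wild type (0.37) in the authors' deposited table. ATP5, for OSCP, gave -0.23 in Δsbp1, -0.19 in Δscd6 and -0.29 in the wild type in the authors' deposited table, with adjusted p between 0.29 and 0.5. With equal totals ATP4 and ATP14 rose in both deletion strains, by 0.74 and 0.89 in Δsbp1 and by 0.65 and 0.67 in Δscd6, and ATP3 rose by 0.53 in Δsbp1.

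INH1 did not pass in any comparison, while STF2 rose in every strain. INH1 was at 345 in azide-treated and 474 in untreated Δsbp1 cells, 328 in azide-treated and 295 in untreated Δscd6 cells, and 243 in azide-treated and 362 in untreated wild type cells. Its log2 change in the authors' deposited table was -0.46 in Δsbp1 (-1.05 to 0.13, adjusted p = 0.19), 0.15 in Δscd6 (-0.44 to 0.75, adjusted p = 0.72) and -0.57 in the wild type (-1.17 to 0.02, adjusted p = 0.11). At the authors' normalisation a rise of INH1 by more than 0.13 in Δsbp1 or 0.02 in the wild type on the log2 scale lies outside these intervals. With equal totals these bounds move up, by 0.28 in Δsbp1 and 0.15 in the wild type. STF2, first described through its product's stabilising of the bound inhibitor and also linked to survival of drying, was at 3783 in azide-treated and 706 in untreated Δsbp1 cells, 2150 in azide-treated and 254 in untreated Δscd6 cells, and 1755 in azide-treated and 287 in untreated wild type cells. The authors' deposited table gave STF2 rises of 2.42 in Δsbp1 (adjusted p = 1.3e-14), 3.08 in Δscd6 (5.3e-21) and 2.61 in the wild type (4.5e-16). STF1, whose product resembles Inh1 in sequence, rose by 0.86 in Δsbp1 (adjusted p = 0.0049) and gave 0.61 in Δscd6 (0.071) and -0.07 in the wild type (0.86) in the authors' deposited table. Its difference in response for Δsbp1 minus wild type, 0.93, did not pass the normal test (adjusted p = 0.22). Against the wild type, the authors' deposited table gave STF2 as higher in Δsbp1 by 1.30 untreated and by 1.11 under azide (adjusted p = 0.0015 for each). STF1 was higher in Δsbp1 by 1.49 under azide (adjusted p = 3.3e-06), and neither gene was called in Δscd6 against the wild type. Per coding length the ratio of STF2 to INH1 was 11.1 in azide-treated and 1.51 in untreated Δsbp1 cells, 6.64 in azide-treated and 0.872 in untreated Δscd6 cells, and 7.31 in azide-treated and 0.801 in untreated wild type cells. As printed above, the window of STF2 holds AGGGG and no CCAAT, while that of INH1 holds 2 AGGGG and a CCAAT.

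Without azide no member was called in either deletion strain against the wild type. Of the 10 members, 0 passed in untreated Δsbp1 and 0 in untreated Δscd6 by the authors' deposited table of each, and at an unadjusted p under 0.05 the counts were also 0 and 0. Over all genes 1.98% were called in untreated Δsbp1 and 2.52% in untreated Δscd6. The median of the members was 0.15 in Δsbp1 and -0.10 in Δscd6, beside -0.01 over all genes in both. The values ran from -0.34 (ATP14) to 0.39 (INH1) in Δsbp1 and from -0.33 (ATP7) to 0.15 (ATP5) in Δscd6, by the authors' deposited table. With equal totals ATP7 passed as lower in untreated Δscd6 cells, at -0.61, where all genes shift by -0.28. Of 6104 genes then tested, 64 were called higher and 1194 lower (92 and 68 as deposited).

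Under azide 1 member was higher in each deletion strain than in the wild type. Values above 0 numbered 8 of 10 in Δsbp1 and 9 of 10 in Δscd6, beside 3095 and 3444 of all 6352 genes. Medians were 0.42 in Δsbp1 and 0.20 in Δscd6, beside -0.01 and 0.03 over all genes. Of all genes 21.2% were called in Δsbp1 (9.29% up, 11.9% down) and 4.31% in Δscd6 (2.03% up, 2.28% down). Both comparisons use the same azide-treated wild type libraries, in which 6 of the 10 members had their lowest level, so they are not independent.

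ATP3 was at 2414 in azide-treated Δsbp1 cells and 1575 in azide-treated wild type cells, the highest and the lowest of its 6 levels. The authors' deposited table gave a difference of 0.62 (0.19 to 1.04, adjusted p = 0.027), whereas azide-treated Δscd6 cells, at 1773, gave 0.17 against the wild type (-0.25 to 0.60, adjusted p = 0.79). ATP17 was at 856 in azide-treated Δscd6 cells, 679 in azide-treated Δsbp1 cells and 525 in azide-treated wild type cells. In the authors' deposited table it was higher by 0.70 in Δscd6 (0.29 to 1.12, adjusted p = 0.024) and gave 0.37 in Δsbp1 (-0.04 to 0.78, adjusted p = 0.21). ATP4 at 0.48, ATP16 at 0.46 and ATP7 at 0.49 in azide-treated Δsbp1 cells had intervals above 0 but adjusted p of 0.079, 0.092 and 0.1 in the authors' deposited table. With equal totals these 3 passed as well, at 0.61, 0.59 and 0.62, beside ATP3. All genes shift up by 0.13 at that scaling. Of 6131 genes then tested, 1002 were called higher and 579 lower in azide-treated Δsbp1 cells (590 and 756 as deposited). ATP1 gave -0.02 and ATP2 0.02 in azide-treated Δsbp1 cells in the authors' deposited table, both with an adjusted p = 0.97.

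**Figure D4:**
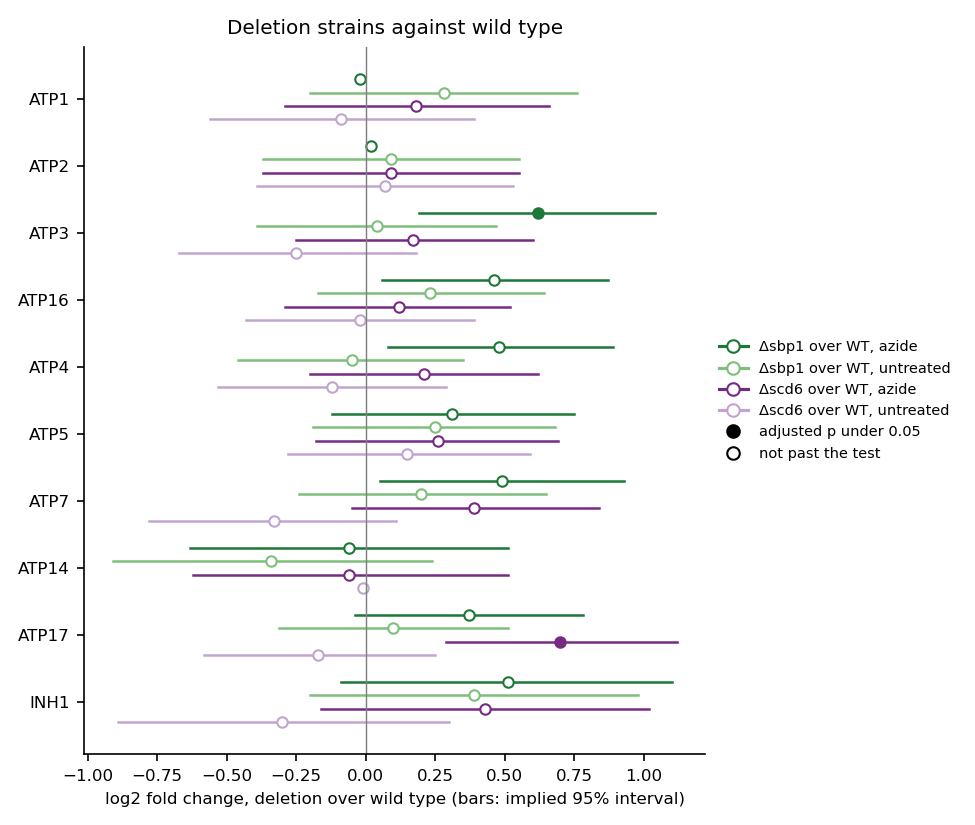
Log2 fold change of each deletion strain over the wild type (horizontal axis), under azide and untreated, for the 10 members, from the authors' tables, with implied 95% intervals. Points without a bar have a change under 0.02, which implies no usable error; the filled points are ATP3 in Δsbp1 and ATP17 in Δscd6, both under azide.

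At the authors' normalisation the azide response itself was not shown to differ between strains for any member. With equal totals 2 members (ATP17, 1.11, and ATP7, 0.96) passed for Δscd6 minus wild type. That scaling adds 0.24 to this difference for every gene. How many of all genes then passed is not given here, so the 2 cannot be set against a share. As deposited, of the 10, 0 passed in Δscd6 minus wild type, 0 in Δsbp1 minus wild type and 0 in Δsbp1 minus Δscd6 by the normal test on implied errors, with 2, 0 and 1 at an unadjusted p under 0.05. Of all genes tested 4.12%, 2.23% and 5.57% were called in these 3 differences. The standard errors of the members' differences lay between 0.29 and 0.43, and INH1 had the widest interval, with 0.73 for Δscd6 minus wild type (-0.11 to 1.57, adjusted p = 0.34).

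Other subunits of the enzyme were read from 6 of 8 genes listed. The authors' deposited table called 3 of the 6 higher under azide in Δsbp1, and 0 in Δscd6 and 0 in the wild type, where 2 and 0 had an unadjusted p under 0.05. Of all genes 27.5% were called up in Δsbp1, 22.1% in Δscd6 and 21.3% in the wild type. With equal totals 4 of the 6 rose in Δsbp1, 2 in Δscd6 and 0 in the wild type, beside 2421, 2502 and 1712 of all genes. ATP20, for subunit g, which helps the enzyme form dimers, rose by 1.24 in Δsbp1 (adjusted p = 0.0022) and gave 0.85 in Δscd6 (0.051) and 0.16 in the wild type (0.76) in the authors' deposited table. ATP18 rose by 0.72 in Δsbp1 (adjusted p = 0.039) and gave -0.30 in Δscd6 and -0.44 in the wild type in the authors' deposited table. For neither ATP20 nor ATP18 did a difference in response pass the normal test. Δsbp1 minus wild type was 1.08 for ATP20 (adjusted p = 0.29) and 1.16 for ATP18 (0.14). Δsbp1 minus Δscd6 was 0.40 for ATP20 (adjusted p = 0.8) and 1.02 for ATP18 (0.17). OLI1, a mitochondrial gene for the ring subunit of F0, had rebuilt levels of 279 in azide-treated and 13.3 in untreated Δsbp1 cells, 200 in azide-treated and 52.4 in untreated Δscd6 cells, and 14.4 in azide-treated and 38.8 in untreated wild type cells. Its log2 changes in the authors' deposited table were 4.39 in Δsbp1 (2.27 to 6.51, adjusted p = 1.8e-04), 1.93 in Δscd6 (0.06 to 3.81, 0.089) and -1.43 in the wild type (-3.33 to 0.47, 0.23). The median of the 6 was 0.54 in Δsbp1, -0.18 in Δscd6 and -0.44 in the wild type, and that in Δscd6 turned to 0.21 with equal totals. Against the wild type under azide, OLI1 was higher by 4.27 in Δsbp1 and by 3.79 in Δscd6, and TIM11, for the dimer subunit e, was higher by 0.76 in Δsbp1 (adjusted p = 0.019) in the authors' deposited table. OLI1 is transcribed in mitochondria, and the labels do not state how RNA was selected for the libraries, so the part of that step in these values was not tested.

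Several factors that build the enzyme or serve its mitochondrial mRNAs rose in all 3 strains, among them ATP11, FMC1, INA22, NCA3 and ATP25. Of 14 such genes, 8 rose and 1 fell in Δsbp1, 8 and 1 in Δscd6, and 5 and 1 in the wild type, with medians of 0.56, 0.71 and 0.15 in the same strains. Over all genes 27.5% were called up and 27.4% down in Δsbp1, 22.1% and 20.4% in Δscd6, and 21.3% and 20.6% in the wild type. With equal totals 11 of the 14 rose in Δsbp1, 10 in Δscd6 and 5 in the wild type, and 1 fell in each. At that scaling 2421 of 6262, 2502 of 6227 and 1712 of 6203 genes tested rose in the same strains. ATP11, the chaperone that holds beta before F1 is assembled, rose by 1.02 in Δsbp1, 0.94 in Δscd6 and 0.93 in the wild type (adjusted p = 7.5e-07, 1.2e-05 and 1.3e-05) in the authors' deposited table. FMC1, needed for F1 assembly at high temperature, rose by 0.96, 0.68 and 1.12 in the same order of strains in the authors' deposited table. INA22, of the complex that assembles the stator, rose by 1.45 in Δsbp1, 1.51 in Δscd6 and 1.07 in the wild type in the authors' deposited table. ATP12, the chaperone for alpha, rose by 0.52 in Δsbp1 (adjusted p = 0.032) and gave -0.17 in Δscd6 and -0.28 in the wild type in the authors' deposited table. Its differences in response did not pass the normal test, with 0.80 for Δsbp1 minus wild type (adjusted p = 0.16) and 0.69 for Δsbp1 minus Δscd6 (adjusted p = 0.21). ATP23, a protease and assembly factor, fell by 1.34 in Δsbp1, 1.36 in Δscd6 and 1.25 in the wild type in the authors' deposited table.

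The carriers that feed the enzyme moved in both directions. PET9, the major ADP/ATP carrier, fell with log2 changes of -1.44 in Δsbp1, -0.72 in Δscd6 and -0.90 in the wild type in the authors' deposited table (adjusted p = 7.1e-09, 0.0067 and 5.4e-04). AAC3, the carrier isoform of anaerobic growth, rose by 1.22, 1.13 and 0.99 in the same strains in the authors' deposited table. For phosphate, MIR1, the main carrier, fell with -1.72 in Δsbp1, -1.17 in Δscd6 and -0.64 in the wild type, and PIC2, a second carrier, rose by 4.26, 3.87 and 4.16 in the authors' deposited table. All of these passed the test, while SAL1 did not pass in any strain. The authors' deposited table gave AAC1, a minor ADP/ATP carrier, 0.43 in Δsbp1, 0.30 in Δscd6 and 1.46 in the wild type, of which the last passed (adjusted p = 1.5e-06), and the differences in response did not pass the normal test (-1.04 for Δsbp1 minus wild type, adjusted p = 0.14, and -1.16 for Δscd6 minus wild type, adjusted p = 0.06). With equal totals PET9 and MIR1 both still fell in Δsbp1, but MIR1 alone in Δscd6 and PET9 alone in the wild type.

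In the respiratory complexes upstream CYC7 and COX26 rose in all 3 strains, while the others passed in 1 or 2 strains or in none. Of 11 bc1 and cytochrome c genes analysed of 12 listed, 5 rose and 0 fell in Δsbp1, 4 and 0 in Δscd6, and 1 and 1 in the wild type. Of 10 nuclear cytochrome c oxidase genes, 4 rose in Δsbp1, 1 in Δscd6 and 1 in the wild type, and COX4 fell in the wild type. Over all genes 27.5% were called up in Δsbp1, 22.1% in Δscd6 and 21.3% in the wild type. With equal totals 8 bc1 and cytochrome c genes rose in Δsbp1, 7 in Δscd6 and 2 in the wild type, and 6, 6 and 1 of the oxidase genes. At that scaling 2421, 2502 and 1712 of all genes rose in the same strains. CYC7, the hypoxic isoform of cytochrome c, rose by 4.53 in Δsbp1, 4.44 in Δscd6 and 4.30 in the wild type in the authors' deposited table. COX26, a small protein of the oxidase supercomplexes, gave 4.88, 6.22 and 4.31 in the same strains in the authors' deposited table. The changes of the other genes in these 2 lists lay between -0.94 (QCR10 in the wild type) and 1.32 (COX7 in Δsbp1) in the authors' deposited table. Under azide 6 genes of each list were higher in Δsbp1 than in the wild type and 0 in Δscd6, where 2 bc1 and cytochrome c genes and 5 oxidase genes had an unadjusted p under 0.05. Of all genes 9.29% were called higher in Δsbp1 and 2.03% in Δscd6 in these comparisons. With equal totals 9 bc1 and cytochrome c genes and 8 oxidase genes were higher in Δsbp1, and 0 of either list in Δscd6. At that scaling 1002 of all genes were called higher in Δsbp1 and 117 in Δscd6. Untreated Δsbp1 cells already had 2 genes of each list higher than the wild type in the authors' deposited table. These were CYT1 (0.89), CYC7 (1.88), COX5B (1.02) and COX26 (1.45), beside 1.98% of all genes called in either direction. In the azide response of Δsbp1 minus wild type, 0 genes of either list passed the normal test, beside 2.23% of all genes.

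**Figure D5:**
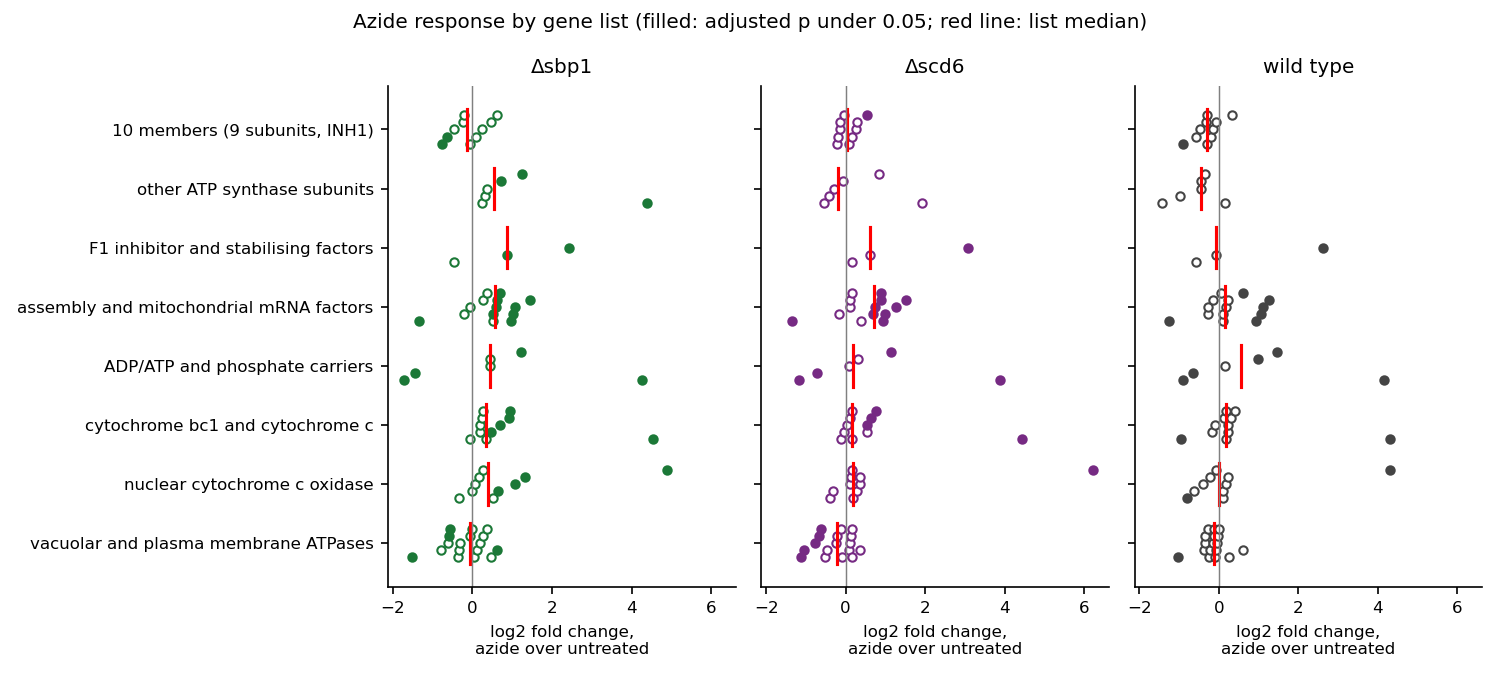
Log2 fold change of azide-treated over untreated cells (horizontal axis) for every analysed gene of 8 lists, 1 panel per strain, from the authors' tables; filled points passed an adjusted p of 0.05 and red lines mark the list median. The 10 members lie between -0.90 and 0.61, while OLI1, STF2, PIC2, CYC7 and COX26 lie between 2.42 and 4.88 in Δsbp1.

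Outside the gene lists, the genes whose 6 group levels ran most like those of INH1 were YCP4, SPO14, MSC6, GSH2 and LPD1. Likeness was the root mean square difference of log2 group levels, each centred on its own mean over the 6 groups. It was 0.0748 for YCP4 and 0.106 for LPD1, beside a median of 0.454 over the pool of genes compared. That pool held 4701 named genes with a mean normalised count of at least 100. The members and the genes of the other lists had been left out of it, so none of them could be ranked. For the median of the 9 subunits the nearest genes of the pool were LST7, ARG4, SBA1, DID4 and ADD37. Their values ran from 0.0552 to 0.064, beside a median of 0.375 over the pool. Among the members themselves ATP16 lay closest to that median (0.061) and ATP14 farthest (0.336). With 6 points and small changes, many genes lie close by, and the order among them carries no error.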

How the data were processed

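The 12 RNA-seq libraries entered through 7 tables of the authors' own comparisons, 3 of azide within a strain and 4 of a deletion against the wild type. The authors deposited, per the file headers, a mean normalised count over all libraries (read as a signal, the same in every table), a fold ratio, its log2 value and the p-value with its adjusted form, for each of 6352 genes. Per the submitters' processing notes, edgeR, featureCounts, STAR 2 and Picard were among the tools, with no role stated. Genome build, annotation and strand setting: not given in the sources used here. Depth per library is unknown, and no p-value was recomputed from counts. RNA was isolated with hot phenol and libraries made with an NEBNext kit, per the labels' protocols.

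The authors' adjusted p was compared with a Benjamini-Hochberg adjustment of their p and differed by at most 4.6e-08. Called means an adjusted p under 0.05. A standard error was implied from the log2 fold change and the normal quantile of its p where the change was at least 0.02, and intervals cover 95%. Differences between strains in the azide response were tested with a normal test on these errors, adjusted over 6331, 6329 and 6142 genes. Group levels were rebuilt so that the mean over the 6 groups equals the mean normalised count. Rebuilding by different routes differed by at most 0.001 on the log2 scale. The steps were tested on simulated data. All steps ran in Python 3.11.15 (scipy 1.17.1, numpy 2.4.6, pandas 2.3.3, and for figures matplotlib 3.10.9).

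The members, the 8 gene lists and the 5 nearest genes by likeness were chosen with earlier results of these data known. Named genes are the members and, of the lists, genes called in any azide response; TIM11 and SAL1 were named after their values were seen, as were the rows YBL100C and YLR294C. CCAAT and AGGGG and the window upstream of the start codon were chosen after the tables were seen. Gene positions are from the R64 reference, matched by systematic name, and the annotation there gives no UTRs. ATP6, ATP8 and COB are not analysed here.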

Additional observations from a re-analysis of the deposited data

Results flagged for a closer look

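The azide response of OLI1, the mitochondrial gene for the ring subunit of F0, differed between Δsbp1 and the wild type by 5.82 on the log2 scale (SE 1.45, interval 2.96 to 8.67, adjusted p = 0.0068 by the normal test). The difference between strains itself passed, as did 2.23% of the 6329 genes tested. The rebuilt level of OLI1 was 14.4 in azide-treated and 38.8 in untreated wild type cells and 13.3 in untreated Δsbp1 cells. Of the groups behind this difference, azide-treated Δsbp1 alone stood higher, at 279, so the difference rests on low values. The mean normalised count of OLI1 over all libraries was 99.7, under the minimum of 100 used elsewhere here. The difference between Δscd6 and the wild type was 3.36 (interval 0.62 to 6.11, adjusted p = 0.15).

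VMA9, for a subunit of the vacuolar ATPase, differed in its azide response between Δsbp1 and Δscd6 by 1.28 (interval 0.51 to 2.05, adjusted p = 0.026 by the normal test), so this difference passed too. Of 6142 genes tested 5.57% passed in this difference. The rebuilt levels of VMA9 were 1101 in azide-treated and 720 in untreated Δsbp1 cells, and 1261 in azide-treated and 1996 in untreated Δscd6 cells. The 2 strains thus stood further apart untreated than under azide.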

How the results depend on the processing

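No paired analysis was possible because the tables hold no values per library, and for the same reason leaving out a replicate was not run. Counts of members called fell to 0 under Bonferroni adjustment and, separately, with a log2 change of at least 1 required, for azide in Δsbp1, in Δscd6 and in the wild type and for Δsbp1 and Δscd6 against the wild type under azide. At an adjusted p under 0.01 they fell to 0 for azide in Δscd6 and for both deletions under azide. Tests over genes with a mean normalised count of at least 100 added ATP4 (0.46) in Δsbp1 and changed no other call.

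Scaling each group to the same total moved more. Members called numbered 3 for azide in Δscd6, 3 for azide in Δsbp1 (3 up, 0 down), 1 for untreated Δscd6 against the wild type (ATP7, -0.61), 4 for Δsbp1 against the wild type under azide and 2 for the response of Δscd6 minus that of the wild type. Counts over all genes at this scaling stand with the results above, except for the differences in response, where none is given. The median ratio of highest to lowest group became 1.82. Among values with an implied error, signs turned for 15, none of them called at either scaling; 3 member values without an implied error (ATP1 and ATP2 for Δsbp1 against the wild type under azide, ATP14 for untreated Δscd6 against the wild type) could not be tested at this scaling. Of these, the sign of ATP1 also turns, since -0.02 lies within the shift of 0.13. These were ATP4 (0.07) for azide in the wild type; ATP1 (0.18), ATP2 (0.26), ATP16 (0.24), ATP5 (0.20) and ATP17 (0.36) for azide in Δscd6; and ATP2 (0.06), ATP16 (0.22) and ATP5 (0.05) for azide in Δsbp1. The others were ATP2 (-0.21) and ATP5 (-0.12) for untreated Δscd6 and ATP14 (0.06) for azide-treated Δsbp1, each against the wild type. Among differences in response they were ATP14 (0.19) for Δscd6 minus wild type, ATP2 (0.06) for Δsbp1 minus wild type and ATP16 (-0.02) for Δsbp1 minus Δscd6. The cause was not tested. Taking errors for the differences from the azide tables or from the strain tables changed no member's call.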

Other observations

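The other proton ATPases of the cell are those of the vacuole and the plasma membrane. Of 17 genes for these enzymes, 1 rose and 3 fell in Δsbp1, 0 rose and 5 fell in Δscd6, and 0 rose and 1 fell in the wild type, with medians of -0.05, -0.22 and -0.11. Over all genes 27.5% were called up and 27.4% down in Δsbp1, 22.1% up and 20.4% down in Δscd6, and 21.3% up and 20.6% down in the wild type. With equal totals 4 of the 17 rose and 1 fell in Δsbp1, 4 and 1 in Δscd6, and 1 and 1 in the wild type. At that scaling 2421 of all genes rose and 1214 fell in Δsbp1, 2502 and 527 in Δscd6, and 1712 and 974 in the wild type. STV1, the subunit a isoform of the Golgi and endosomes, fell in all 3 strains in the authors' deposited table, with -1.52 in Δsbp1, -1.13 in Δscd6 and -1.03 in the wild type. PMA1, the plasma membrane proton pump, gave -0.78 in Δsbp1 (adjusted p = 0.1), -1.04 in Δscd6 (adjusted p = 0.034) and -0.34 in the wild type (adjusted p = 0.53) in the authors' deposited table. Its difference in response for Δscd6 minus wild type, -0.70, did not pass the normal test (adjusted p = 0.54).

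The row YLR294C is named as the neighbour of ATP14 on the same strand and is not listed in the reference annotation used here, so whether the rows share reads was not tested. It gave 0.79 in Δsbp1, 0.74 in Δscd6 and 0.12 in the wild type in the authors' deposited table, with ATP14 at 0.61, 0.28 and 0.33.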
